A study of Danio rerio with 15 samples.

Results

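The acute effect of 1.0 Gy of γ-rays on liver mRNA was measured in adult male zebrafish. Of 15 GeneChip Zebrafish Genome Arrays in the series, 6 form the comparison described here: the 3 whose titles give adult irradiation at the high dose and the 3 whose titles give a non-irradiated control, and of 15617 probe sets on each array the 15502 for zebrafish transcripts were used, without the manufacturer's controls. The adult 1.0 Gy males, of the AB background and 16 weeks old, received whole-body irradiation and were killed 4 hours later. Control males were of the same background and age and were not irradiated. The RNA on an array came from 2 pooled livers, so p-values measure the spread between such pools. All fish came from embryos pooled from a few breeding pairs, and the adult irradiated males belonged to the control cohort until their irradiation. No sham-irradiated group is described, so irradiation and the handling that went with it cannot be told apart. Adult males that received 0.1 Gy and were killed after the same 4 hours, and males that received 1.0 Gy as embryos at 24 hours post fertilization and were killed at 16 weeks (3 arrays each), serve below to show where the adult 1.0 Gy livers differed from them. Values are log2 expression per probe set, so a difference of 1 is a doubling, and a gene is represented by its probe set of highest mean.

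Ionizing radiation breaks DNA, and cells answer within hours through the transcription factor p53, whose targets include its own inhibitor, genes that halt the cell cycle and genes that start cell death at the mitochondrion. The liver is at the same time a secretory organ, whose hepatocytes fold plasma proteins in the endoplasmic reticulum (ER), and the main site of fuel storage, lipid synthesis, thyroid hormone conversion and insulin-like growth factor production. In these roles it is under the control of insulin, growth hormone, glucocorticoids and the circadian clock.

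The labels of control replicates 2 and 3 disagree with each other: their source name is that of adult irradiated fish, while title, dose and timing place them with the controls, where they are kept here. The source name of adult 0.1 Gy replicates 1 and 2 likewise lacks the irradiation that their other labels give. Multidimensional scaling used the 8634 probe sets that passed the filter on variation given below, and the shares of variance refer to these. On the first axis, which carried 40.2% of the variance, the adult 1.0 Gy arrays lay at 28.92, 26.52 and 20.39 and the controls at -27.93, -31.95 and -33.61. On this axis control replicates 2 and 3 lay beside control replicate 1 and apart from every irradiated array. On the second axis (15.8% of the variance) control replicates 2 and 3 stood alone at 25.97 and 25.84, and control replicate 1 lay at 1.751, among the adult 1.0 Gy arrays at 5.21, 4.112 and -6.59. On the third axis (9.27% of the variance) adult 1.0 Gy replicate 3 lay at 26.59 and control replicate 1 at 19.46, above the other 4 arrays of the comparison, which lay between -6.863 and 7.026.

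Markers of hepatocytes differed little between the groups, with 1 of 18 on the array called (tat, higher). Their mean was 13.72, 13.60 and 13.54 in adult 1.0 Gy livers, against 13.60, 13.60 and 13.53 in controls, and the defining markers ambp (a secreted protease inhibitor, 13.65, 13.70 and 13.68 against 13.58, 13.73 and 13.74) and tfa (transferrin, 14.52, 14.46 and 14.38 against 14.49, 14.49 and 14.54) did not pass the filter on variation. The list mean, ambp and tfa lay near the upper end of the scale, as did rpl13a, gapdh and fgb below. Whether a change could show at that level was not tested. Markers of other tissues varied between single arrays. Exocrine pancreas markers (19 genes) averaged 8.50, 9.85 and 11.52 in adult 1.0 Gy livers and 10.85, 10.26 and 9.48 in controls, with the defining markers prss1 (trypsin, 11.13, 12.95 and 14.33 against 13.96, 13.47 and 12.30) and ela2 far above 0 in every array. Skeletal muscle markers (29 genes) averaged 5.26, 5.59 and 7.01 against 5.26, 4.98 and 5.05, with actc1b at 6.79, 7.46 and 10.30 in adult 1.0 Gy livers and 6.89, 6.23 and 6.33 in controls. Intestine markers (15 genes) averaged 5.80, 5.51 and 6.08 against 7.91, 6.30 and 5.67, with the intestinal fatty acid binding protein fabp2 at 6.60, 6.66 and 6.43 against 11.18, 8.98 and 6.80. fabp2 was not called (-2.42 ± 1.08, adjusted p = 0.08), but was called lower without control replicate 3 (-3.52), without control replicates 2 and 3 (-4.62) and without embryo 0.1 Gy replicate 1. The pancreas and muscle markers were thus highest in adult 1.0 Gy replicate 3, and the intestine markers in control replicate 1, the arrays that stood apart on the third axis. Of these 3 lists, 0 genes were called higher and 1, the pancreatic amylase gene amy2al1, was called lower. Mean levels differed by less for endothelial cells (5.59, 5.75 and 5.57 against 5.36, 5.51 and 5.28), leukocytes (6.10, 6.01 and 5.94 against 5.96, 5.69 and 5.65) and erythrocytes (6.49, 6.72 and 6.48 against 6.09, 6.48 and 6.30). Those of stellate and fibroblastic cells (6.82, 6.80 and 7.47 against 6.82, 6.58 and 6.45) were highest in adult 1.0 Gy replicate 3. Their defining markers col1a1a (5.88, 6.38 and 8.82 against 6.06, 6.01 and 5.14) and col1a2 (5.99, 6.55 and 8.73 against 6.22, 6.58 and 6.04) stood far higher on that array. Neither was called, nor was the defining marker hand2 (-0.30). Germ cell markers (4.82, 4.96 and 4.87 against 4.73, 4.59 and 4.58) and biliary markers (8.12, 8.08 and 8.54 against 8.61, 8.18 and 8.04) completed the set. The numbers called higher and lower were 2 and 0 for stellate and fibroblastic cells, 1 and 0 for endothelial cells and 2 and 0 for leukocytes. They were 1 and 1 for erythrocytes, 0 and 1 for germ cells and 2 and 2 for biliary cells. The part of these tissues in the results was not tested, and in whole liver fewer cells of a type and less RNA per cell cannot be told apart.

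**Figure D1:**
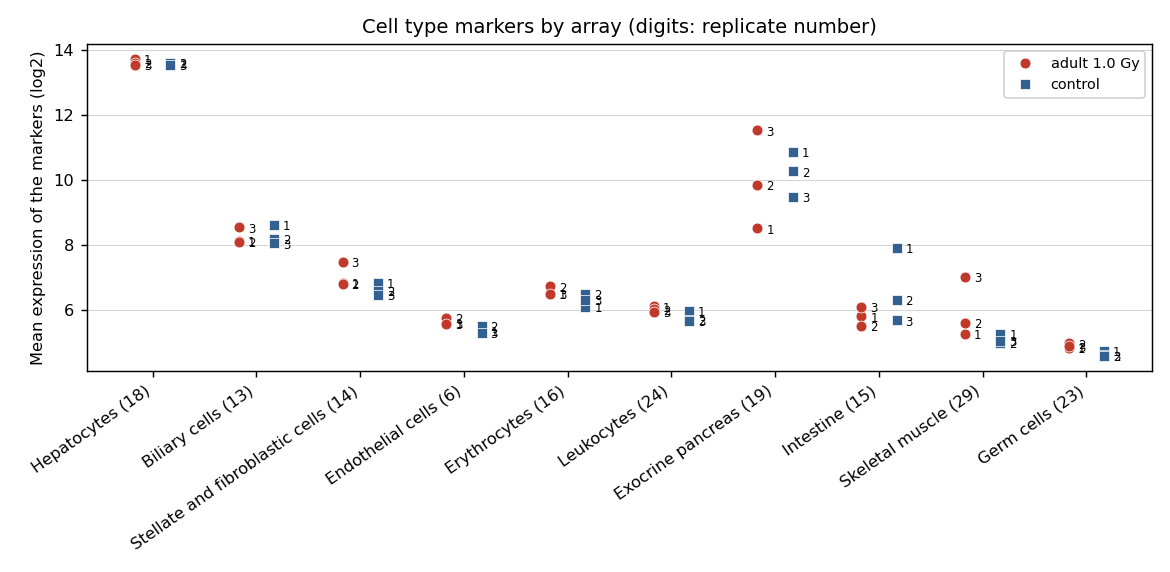
Mean log2 expression of the marker genes of 10 cell types (number of genes in parentheses) on each array, with adult 1.0 Gy livers as circles and controls as squares and the replicate number beside each point. Hepatocyte markers lie between 13.53 and 13.72 on all 6 arrays, skeletal muscle markers reach 7.01 on adult 1.0 Gy replicate 3 and intestine markers 7.91 on control replicate 1.

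The comparison asked which transcripts differed between adult 1.0 Gy and control livers. Of 8634 probe sets that passed a filter on variation (interquartile range across all 15 arrays no smaller than 0.2), 3182 (36.9%) were called, that is, had Benjamini-Hochberg adjusted p-values under 0.05 in limma both for the F-test over the 5 groups and for this comparison. Of the called probe sets, 1157 (13.4% of those tested) were higher and 2025 (23.5%) were lower in adult 1.0 Gy livers. The difference was at least 1 for 308 of the higher and 477 of the lower, and at least 2 for 58 and 42. The arrays of the groups did not overlap for 2518 probe sets (29.2%) in the higher and 2612 (30.3%) in the lower direction. Called genes named below for their large differences come from this comparison, so their separation is in part a property of the choice. The median difference over all genes was 0.05. Counted by gene, 739 of 8793 genes on the array (8.4%) were called higher and 1450 (16.5%) lower. These 2 shares and the median of 0.05 are the background for the counts of members given below. Of the 8793 genes, 5468 passed the filter. The lists ranged from 2 of 71 cytosolic ribosomal proteins past the filter to all 19 aminoacyl-tRNA synthetases, so the background does not match each list in this fraction. Over genes with a mean log2 value of at least 6 the median difference was -0.12. In the fit without control replicates 2 and 3, which leaves 1 control array whose spread is taken from the other groups, 1189 probe sets were called, and of the 3182 called with them 1112 were called again in the same direction and 2862 of the 2865 still tested kept their sign. The 3182 were chosen as called with the adult 1.0 Gy arrays and control replicate 1 that stay in that fit, so a change of sign was unlikely in advance. Without control replicate 3 alone, 743 were higher and 1482 lower. Genes reported below as called kept the call in each of 15 fits that left out 1 array unless another count is given. Of 429 called genes with over 1 probe set, 201 had another called the same way and 2 had another called the other way. Only 1 of 3 probe sets was called for insra, eif2ak3, tuba2 and f13a1b. Only 1 of 2 was called for asns, derl2, cpt2, aifm1, hsd20b2, bnip3lb, ppp1r3ca, impdh1b and nfil3-6. The same held for npm1a, atg5, e2f4, chac1, kif20a and perp, among others.

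The 15 largest decreases were taken among called genes with no overlap between the groups, so their separation is a property of the choice. hspa5, which encodes BiP, the main Hsp70 chaperone of the ER, measured 5.84, 7.49 and 6.10 in adult 1.0 Gy livers, against 11.20, 11.41 and 11.10 in controls, a difference of -4.76 ± 0.35 (± is the standard error of limma) with an adjusted p of 1.1e-06. cebpa, a transcription factor that maintains hepatocyte identity, measured 6.49, 6.61 and 7.11 against 10.73, 11.52 and 11.56, a difference of -4.53 ± 0.42 (adjusted p = 6.5e-06). dio2, the deiodinase that converts thyroxine to the active hormone, measured 7.88, 6.96 and 8.12 against 11.02, 11.50 and 11.82, a difference of -3.79 ± 0.32 (adjusted p = 3.5e-06). For each of these genes the gap between the groups was wider than the spread within either. mid1ip1b, whose mammalian counterpart promotes fatty acid synthesis, measured 6.11, 6.68 and 6.77 against 10.70, 9.71 and 10.42. cyp2r1, a vitamin D 25-hydroxylase, was the most variable of the set at 6.78, 4.93 and 7.71 against 10.25, 9.06 and 10.20, with the lowest value in adult 1.0 Gy replicate 2. Both were called, by -3.76 ± 0.45 and -3.36 ± 0.73. The dynein light chain gene dynll1 (7.03, 7.43 and 7.12 against 9.90, 10.10 and 10.29) and the β-tubulin gene tubb2b (7.40, 7.75 and 7.98 against 10.21, 10.78 and 10.84) fell by nearly the same amount, -2.90 ± 0.16 and -2.90 ± 0.18, with tight replicates in both groups. The other members of the 15 were pdia4 (-2.75) and manf (-2.73), both of the ER, the scaffold kinase gene caska (-2.60), the RNA-binding protein gene rbmx (-2.57), the growth factor gene igf2b (-2.57), the unannotated id:ibd1087 (-2.52), the thiolase gene acat2 (-2.47) and the mitochondrial carrier gene slc25a27 (-2.45).

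The 15 largest increases were chosen in the same way, so their separation too is a property of the choice, and a called gene with overlapping groups, such as igfbp1a (2.89), is not among them. ypel3, which in human cells is a growth-suppressing target of p53, measured 10.32, 10.06 and 9.99 in adult 1.0 Gy livers, against 7.89, 4.14 and 5.59 in controls, and differed by 4.25 ± 0.69 (adjusted p = 0.00033). Its controls were spread over a wider range than any other gene of the set, with control replicate 1 highest. hif1al, of the hypoxia-inducible factor family, measured 9.63, 9.05 and 8.87 against 4.83, 5.71 and 4.46 (4.18 ± 0.28, adjusted p = 5.1e-07). c7b, a component of the terminal complement pathway, measured 10.43, 10.57 and 9.64 against 7.14, 5.64 and 5.88 (3.99 ± 0.54, adjusted p = 9.2e-05). igfbp1b, a secreted protein that binds insulin-like growth factors and is raised by fasting in mammals, measured 11.19, 11.39 and 10.74 against 6.34, 7.09 and 7.98 (3.97 ± 0.45, adjusted p = 2.5e-05). cpt1b, a carnitine palmitoyltransferase that lets fatty acids enter mitochondria and in mammals is the muscle isoform, measured 11.11, 10.58 and 10.92 against 8.01, 6.78 and 7.05 (3.59 ± 0.50). Muscle markers averaged 5.26, 5.59 and 7.01 on the same arrays, against 5.26, 4.98 and 5.05, and their part in the result was not tested. glula, a glutamine synthetase, measured 10.95, 10.67 and 10.89 against 8.01, 7.16 and 7.52 (3.27 ± 0.22), and thraa, a thyroid hormone receptor, 8.73, 8.69 and 8.16 against 5.59, 5.20 and 5.38 (3.14 ± 0.16). Both had narrow groups and adjusted p-values of 6.2e-07 and 1.2e-07. slc40a1, the iron exporter ferroportin, measured 8.38, 11.02 and 8.11 against 6.79, 5.70 and 6.30 (2.91 ± 0.57) with adult 1.0 Gy replicate 2 well above the others, and was the only one of these 30 genes that was not called without control replicates 2 and 3. The remaining members of the 15 were ivns1abpb (3.64), the kinase gene mknk2b (3.23), zgc:92606 (3.2), the transcriptional repressor gene hbp1 (3.14), slc26a5 (3.08), the sulfotransferase gene sult2st1 (3.07) and the linker histone gene h1-10 (2.83). A second linker histone gene, histh1l1, rose as well (10.78, 10.15 and 10.06 against 7.54, 8.27 and 7.43, 2.59 ± 0.27).

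**Figure D2:**
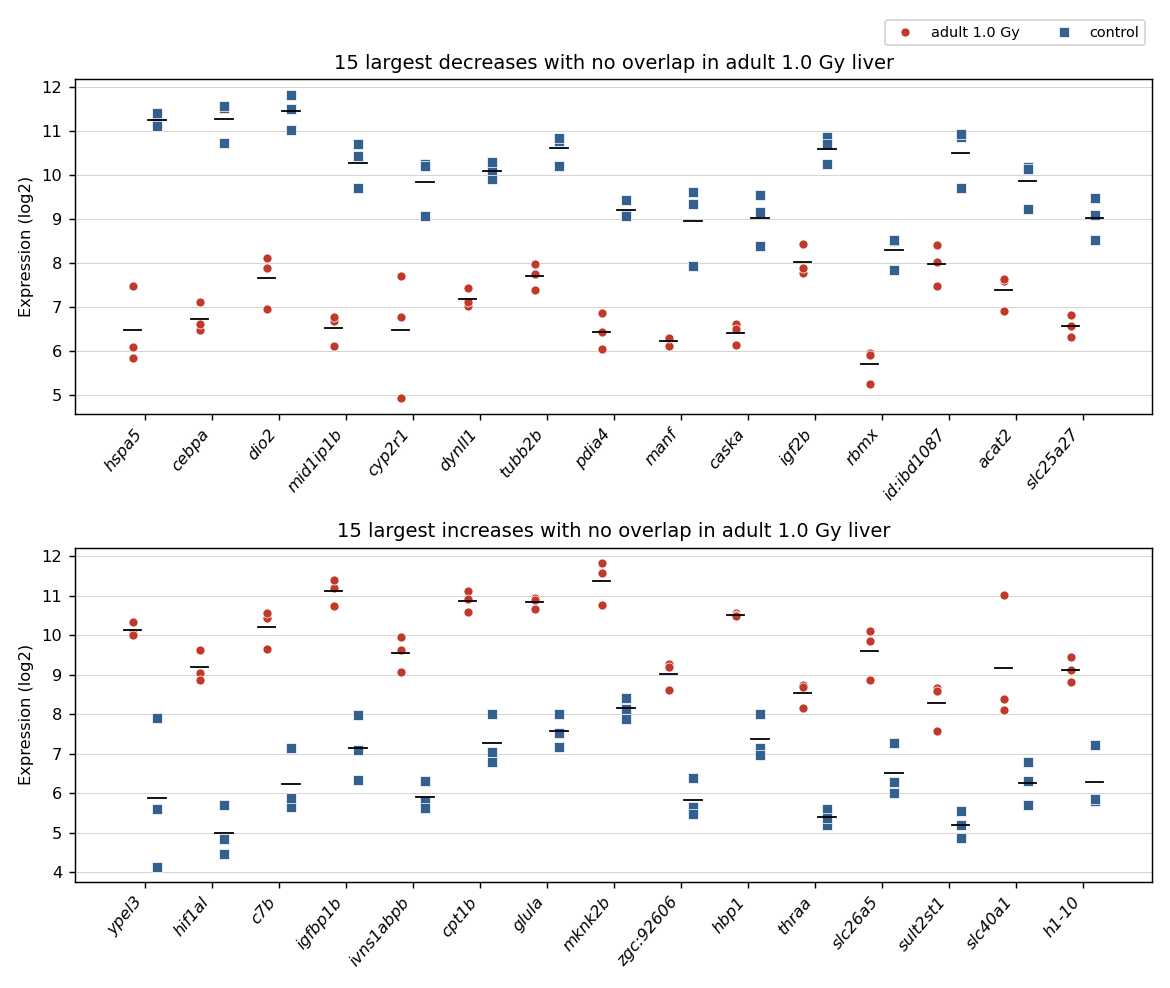
Log2 expression on each array of the 15 genes with the largest decreases (top) and the 15 with the largest increases (bottom) among called genes whose groups did not overlap, with adult 1.0 Gy livers as circles left of controls as squares and the group mean as a black line. The decreases range from -2.45 (slc25a27) to -4.76 (hspa5) and the increases from 2.83 (h1-10) to 4.25 (ypel3).

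**Figure D3:**
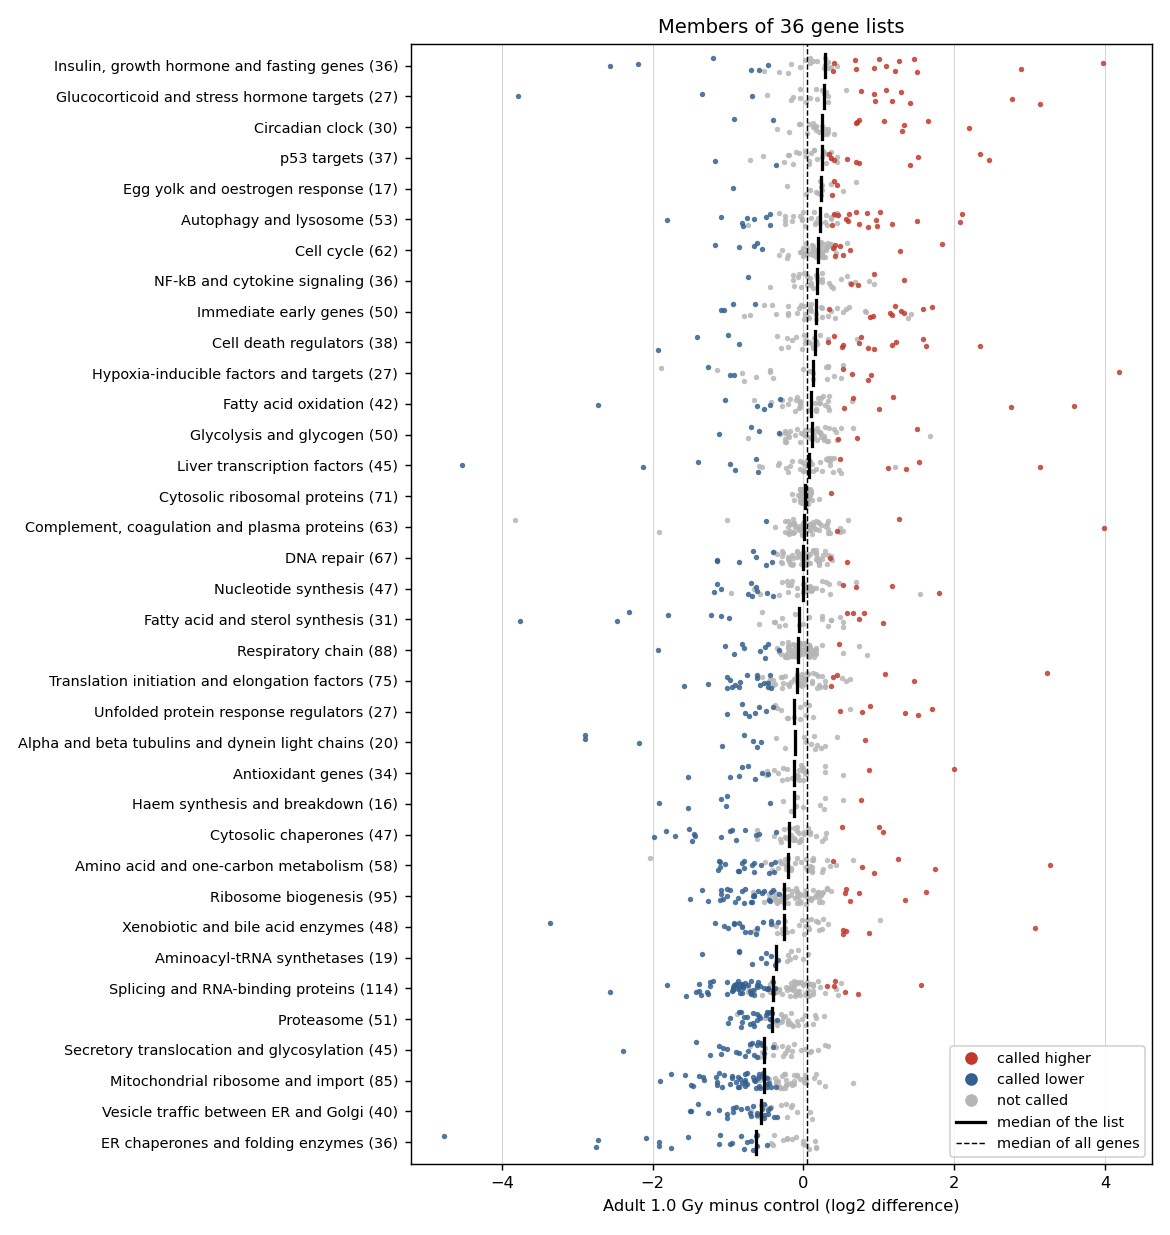
Log2 difference between adult 1.0 Gy and control livers for every member of 36 gene lists (number on the array in parentheses), with called genes in colour, a bar at the median of each list and a dashed line at 0.05, the median of all genes. The list medians run from 0.29 (insulin, growth hormone and fasting genes) to -0.63 (ER chaperones and folding enzymes).

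In each of 3 lists for the secretory route of the hepatocyte, genes were called lower and none higher. Of 36 ER chaperones and folding enzymes on the array, 21 were called lower and 0 higher, with a median difference of -0.63. Besides hspa5, the disulfide isomerase gene pdia4 measured 6.86, 6.43 and 6.05 in adult 1.0 Gy livers, against 9.09, 9.42 and 9.07 in controls (-2.75 ± 0.20, adjusted p = 9.6e-07). The lectin chaperone gene calr3b (3.23, 3.37 and 3.08 against 4.44, 5.87 and 5.65, -2.09 ± 0.28) was lower too, with its irradiated arrays near the lower end of the scale. The ER Hsp90 gene hsp90b1 measured 8.24, 8.35 and 8.10 against 9.99, 10.32 and 10.14 (-1.92 ± 0.21), and hyou1, which helps BiP to exchange its nucleotide, 6.53, 6.79 and 6.60 against 8.10, 9.02 and 8.59 (-1.92 ± 0.18). manf, a small secreted protein of the ER, measured 6.27, 6.12 and 6.31 against 7.94, 9.61 and 9.34 (-2.73 ± 0.30). In these genes the groups did not overlap. Control replicate 1 was the lowest control in calr3b, hsp90b1, hyou1 and manf, and in tram1, srp9 and sec23b below. Among genes that move new proteins across the ER membrane and attach their sugars, 21 of 45 were lower and 0 higher (median -0.53). tram1, a translocation channel partner, fell by the most (7.97, 7.81 and 7.52 against 9.25, 10.67 and 10.57, -2.39 ± 0.30), followed by srp9 of the signal recognition particle (7.10, 7.16 and 7.35 against 8.01, 8.95 and 8.95, -1.43 ± 0.21). The signal peptidase subunit gene sec11a (-1.12) and srp68 (-1.09) were lower as well. ssr3, of the translocon-associated complex, was not called (-0.13 ± 0.17). Of 40 genes of vesicle traffic between ER and Golgi, 26 were lower and 0 higher (median -0.56). They included coat components of outbound vesicles (sec23b, 9.05, 9.70 and 9.54 against 10.61, 11.11 and 11.05, -1.49 ± 0.23) and of returning vesicles (arcn1a, -1.40), the cargo receptor gene tmed3 (-1.12, called with each of its 3 probe sets), yif1a (-1.51) and the receptor genes that retrieve ER proteins, kdelr3 (-1.01) and kdelr2b (-0.52). The counts of genes called lower without control replicates 2 and 3 were 10, 6 and 9 for the 3 lists, and against control replicate 1 alone their medians were -0.43, -0.24 and -0.32, beside 0.02 over all genes. The genes named here as lower were called there too, except kdelr2b, which fell below the filter on variation.

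The regulators of the unfolded protein response, the program that adjusts ER chaperones to the load of unfolded protein, moved in both directions: 6 of 27 were higher and 8 lower (median -0.12). ppp1r15a, which restores translation after stress by directing a phosphatase to eIF2α, measured 8.04, 8.74 and 7.23 in adult 1.0 Gy livers, against 5.83, 5.93 and 7.15 in controls (1.70 ± 0.39, adjusted p = 0.0037), and all 4 of its probe sets were called higher. creb3l3l, related to a membrane-bound transcription factor of the mammalian liver, measured 8.56, 8.50 and 8.18 against 7.0, 7.02 and 7.20 (1.34 ± 0.20), and mbtps1, the protease that cleaves such factors in the Golgi, 9.31, 9.07 and 8.82 against 8.32, 8.11 and 8.12 (0.88 ± 0.13). The groups did not overlap in these 3 genes. Lower were atf4a, the transcription factor translated when eIF2α is phosphorylated (8.76, 8.86 and 8.74 against 9.42, 9.34 and 9.37, -0.59 ± 0.11), its target asns (-0.81 ± 0.14), the eIF2α kinase gene eif2ak3 (4.96, 5.64 and 5.52 against 5.95, 6.58 and 6.61, -1.01 ± 0.23) and derl2, of ER-associated degradation (-0.72 ± 0.17). xbp1, the transcription factor activated by splicing in this response, was not called (-0.38 ± 0.25, adjusted p = 0.21) but was called lower without control replicate 1 (-0.73), without that array and adult 1.0 Gy replicate 3 (-0.65) and with array weights. Once control replicates 2 and 3 were left out, the counts were 5 higher and 1 lower, and asns, eif2ak3 and derl2 were not called.

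Targets of p53 were higher more often than lower. Of 37 on the array, 10 were called higher and 2 lower, with a median of 0.24. tp53inp1, a stress-induced partner of p53, measured 11.94, 11.72 and 11.43 in adult 1.0 Gy livers, against 9.29, 8.65 and 9.76 in controls (2.46 ± 0.29, adjusted p = 3.3e-05). bbc3, which encodes the cell death activator Puma, measured 8.15, 7.62 and 7.23 against 5.51, 5.18 and 5.32 (2.34 ± 0.28, adjusted p = 3.8e-05), and pmaip1, which encodes Noxa, 6.83, 6.30 and 6.30 against 4.93, 4.80 and 5.14 (1.52 ± 0.30). The cyclin gene ccng2 measured 9.20, 9.22 and 8.69 against 7.51, 7.82 and 7.55 (1.41 ± 0.22). mdm2, the inhibitor of p53 that p53 itself induces, changed by less but with narrow groups (7.13, 7.12 and 7.0 against 6.21, 6.52 and 6.41, 0.70 ± 0.11, adjusted p = 0.00034), and bida, a link between death receptors and mitochondria, likewise (7.97, 7.82 and 7.79 against 7.12, 7.15 and 7.13, 0.73 ± 0.10). None of these 6 genes had overlapping groups. baxa, which encodes the pore-forming Bax, was called at the edge of the threshold (7.40, 6.85 and 7.08 against 6.48, 6.94 and 6.69, 0.41 ± 0.16, adjusted p = 0.048) with overlapping groups, and its call was lost in 11 of the 15 fits that left out 1 array, among them those without adult 1.0 Gy replicate 1 (0.26) or 3 or control replicate 1 or 3. ccng1, another p53-induced cyclin in mammals, did not pass the filter on variation (11.20, 10.81 and 11.19 against 11.16, 11.15 and 11.45). ccnd1, cyclin D1, fell (7.34, 7.56 and 7.23 against 8.42, 8.81 and 8.42, -1.17 ± 0.19), and so did perp, a membrane protein of cell death in mammals (-0.36), whose call was lost in 10 of the 15 fits, those without adult 1.0 Gy replicate 1 or 2 or any control among them. Without control replicates 2 and 3 the list had 6 genes higher and 1 lower. tp53inp1, bbc3, pmaip1, ccng2, bida, mdm2 and ccnd1 were among them, and against control replicate 1 alone the median was 0.17.

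Regulators of cell death, a list that shares bbc3, baxa, bida and others with the p53 targets, had 13 of 38 members higher and 4 lower (median 0.15). These shares were 34.2% and 10.5%, beside 8.4% higher and 16.5% lower of all genes. Both promoters and inhibitors of death rose. casp9, the initiator caspase of the mitochondrial pathway, measured 6.70, 6.82 and 6.70 in adult 1.0 Gy livers, against 5.14, 5.09 and 5.12 in controls (1.62 ± 0.21, adjusted p = 6.2e-05), with the groups apart. bnip3lb, of mitochondrial clearance and death, measured 9.49, 9.92 and 8.54 against 7.86, 7.93 and 7.44 (1.58 ± 0.33). diabloa, which in mammals frees caspases from their inhibitors, measured 12.97, 12.93 and 12.62 against 11.08, 11.92 and 11.83 (1.23 ± 0.31). mcl1a, which encodes a protein that opposes death, measured 10.19, 10.15 and 9.96 against 9.17, 8.73 and 8.88 (1.17 ± 0.13), and the caspase inhibitor gene xiap was not called (8.10, 8.01 and 7.82 against 7.6, 8.13 and 7.85, 0.12 ± 0.17). The decreases were in cytochrome c, a mitochondrial protein that activates caspases once released (cycsb, 9.84, 9.92 and 9.99 against 11.36, 12.13 and 12.04, -1.93 ± 0.19), in aifm1, another mitochondrial protein (7.39, 7.34 and 7.29 against 8.16, 8.41 and 8.46, -1.0 ± 0.14), and in pdcd6 (-1.41) and aifm2 (-0.85). The counts were 8 higher and 2 lower without control replicates 2 and 3, and bnip3lb, pdcd6 and aifm2 were not called there.

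**Figure D4:**
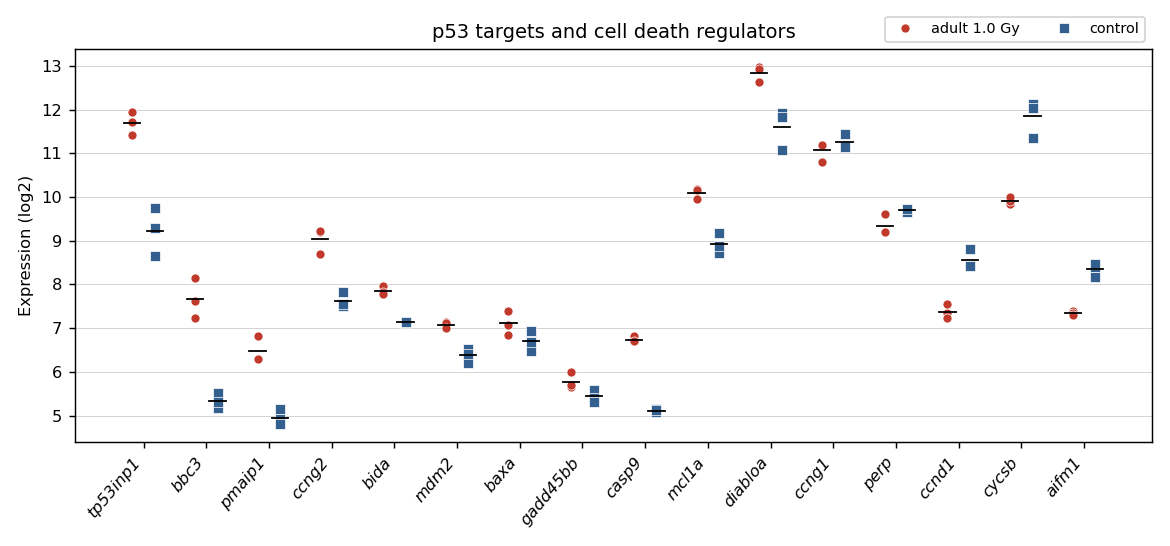
Log2 expression on each array of 16 p53 targets and cell death regulators, with adult 1.0 Gy livers as circles left of controls as squares and the group mean as a black line. The groups of tp53inp1, bbc3, pmaip1, casp9 and mcl1a are apart, those of baxa and ccng1 overlap, and those of cycsb and ccnd1 are apart with adult 1.0 Gy livers lower.

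Genes of DNA repair and of the cell cycle were called in both directions. Of 67 repair genes, 2 were higher (2.99%) and 8 lower (11.9%), with a median of 0.00. Of all genes, 8.4% were higher and 16.5% lower. usp1, a deubiquitinase of cross-link repair, measured 5.08, 5.19 and 5.29 in adult 1.0 Gy livers, against 6.35, 6.21 and 6.45 in controls (-1.15 ± 0.11), apex1, a base excision nuclease, 4.62, 4.94 and 5.21 against 5.73, 6.17 and 6.32 (-1.15 ± 0.20), and the replication clamp gene pcna 7.09, 7.18 and 7.32 against 8.01, 8.11 and 8.01 (-0.85 ± 0.22). In each the irradiated arrays were below the controls. prkdc, the catalytic subunit of the kinase that joins broken ends, and neil1, a glycosylase, were lower by -0.63 ± 0.12 and -0.67 ± 0.14. ddb2, a damage sensor and p53 target, was called higher (7.43, 7.55 and 7.55 against 7.33, 6.68 and 6.77, 0.58 ± 0.18), but not in any of the 4 fits without adult 1.0 Gy replicate 2 or 3 or control replicate 2 or 3. Of 62 cell cycle genes, 8 were higher (12.9%) and 5 lower (8.06%), with a median of 0.20. cdkn1bb, an inhibitor of cyclin-dependent kinases, rose most (9.11, 8.64 and 8.50 against 6.44, 7.14 and 7.16, 1.84 ± 0.20, adjusted p = 2.2e-05), while cdk1 itself was near the lower end of the scale and was not called (4.17, 4.2 and 4.02 against 4.25, 4.13 and 4.00). e2f4, a repressor of cell cycle genes, and dut, which keeps uracil out of DNA, were lower (-0.55 and -0.65). The number of cell cycle genes called higher was 5 without adult 1.0 Gy replicate 1 or 2, 4 without control replicate 2 and 3 without control replicate 3, and no repair gene was higher without adult 1.0 Gy replicate 2 or either of these controls. Without both of these controls, 1 cell cycle gene was higher and 3 lower, and 0 repair genes were higher and 1 lower. cdkn1bb, usp1, e2f4 and dut were called there, and apex1, pcna, prkdc and neil1 were not.

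The growth hormone receptor genes ghrb and ghra and the ligand genes igf1 and igf2b fell, and the binding protein genes igfbp1a and igfbp1b and the insulin receptor gene insra rose. In the list of insulin, growth hormone and fasting genes, 13 of 36 were higher and 6 lower (median 0.29). Among the ligands, igf1 measured 8.60, 8.75 and 8.54 in adult 1.0 Gy livers, against 9.58, 9.95 and 9.94 in controls (-1.20 ± 0.14, adjusted p = 2.7e-05), and igf2b 8.43, 7.78 and 7.89 against 10.86, 10.24 and 10.69 (-2.57 ± 0.32, adjusted p = 5e-05). The growth hormone receptor gene ghrb measured 7.91, 7.78 and 8.16 against 10.18, 10.24 and 10.05 (-2.2 ± 0.21) and its paralog ghra 5.76, 5.61 and 5.93 against 6.61, 6.40 and 6.36 (-0.69 ± 0.17). None of these 4 genes overlapped between the groups. On the other side were the binding protein genes igfbp1b and igfbp1a. igfbp1a varied widely (12.39, 12.97 and 10.67 against 8.55, 7.95 and 10.85, 2.89 ± 0.66, adjusted p = 0.0035), with adult 1.0 Gy replicate 3 below control replicate 3. The insulin receptor gene insra measured 8.38, 8.15 and 8.24 against 7.61, 6.75 and 6.75 (1.22 ± 0.20), but only 1 of its 3 probe sets was called. Its substrate irs2a measured 6.41, 6.06 and 5.98 against 5.09, 5.16 and 5.20 (1.0 ± 0.14). eif4ebp3l, a repressor of cap-dependent translation that insulin signaling inactivates, measured 9.90, 9.69 and 9.90 against 8.25, 8.40 and 8.42 (1.47 ± 0.23), and pdk2b, which turns pyruvate away from oxidation, 8.94, 8.37 and 7.92 against 5.98, 7.80 and 6.96 (1.5 ± 0.38). pck1, the rate-limiting enzyme of gluconeogenesis, was not called (11.72, 12.17 and 10.84 against 10.33, 12.08 and 11.34, 0.33 ± 0.42, adjusted p = 0.52). Without adult 1.0 Gy replicate 1 the list had 8 members higher, and without control replicates 2 and 3 it had 10 higher and 4 lower, with each of the called genes above kept.

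Genes of autophagy and the lysosome, by which cells digest their own contents, moved in both directions. This list was added after the differences had been seen. Of 53 members, 17 were higher and 9 lower (median 0.22). Higher were genes that start and build the autophagosome: the kinase gene ulk1b (8.86, 8.22 and 8.38 in adult 1.0 Gy livers, against 6.57, 6.46 and 6.18 in controls, 2.08 ± 0.30, adjusted p = 0.00015), its partner atg101 (1.01 ± 0.14), the membrane-tagging proteins map1lc3a (11.31, 11.01 and 11.18 against 9.62, 9.01 and 8.57, 2.1 ± 0.22, adjusted p = 1.3e-05) and map1lc3b (9.75, 9.48 and 9.49 against 8.65, 8.20 and 8.36, 1.17 ± 0.15), and the cargo receptor gene nbr1a (8.0, 7.57 and 7.55 against 6.29, 6.0 and 6.33, 1.5 ± 0.21). The groups were apart in each. Lower were the Rag GTPase genes rraga (5.46, 5.84 and 5.90 against 6.64, 6.86 and 6.99, -1.10 ± 0.15) and rragca (-0.80 ± 0.13), which report amino acids to the growth kinase mTOR, proton pump subunits of the lysosome (atp6v1g1, -0.75 ± 0.12, and atp6v0d1, -0.81 ± 0.15) and the lysosomal membrane protein gene scarb2a (6.41, 6.19 and 5.94 against 8.20, 7.72 and 8.03, -1.81 ± 0.19). atg5, of the conjugation machinery, was also lower (-0.66 ± 0.17). The counts were 10 higher and 4 lower without control replicates 2 and 3, where atp6v0d1 and atg5 lost their calls.

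Genes of lipid metabolism were called in both directions. In fatty acid oxidation 6 of 42 genes were higher (14.3%) and 6 lower (14.3%), with a median of 0.11. Of all genes, 8.4% were higher and 16.5% lower. Beside cpt1b, its liver-type counterpart cpt1ab measured 8.21, 7.82 and 7.85 in adult 1.0 Gy livers, against 7.11, 6.41 and 6.79 in controls (1.19 ± 0.21), and ucp2, a mitochondrial carrier, 9.32, 10.32 and 8.59 against 6.43, 7.46 and 6.09 (2.75 ± 0.45, adjusted p = 0.00034). cpt2, which acts after cpt1 on the inner membrane, moved the other way (8.35, 8.0 and 8.47 against 9.55, 9.13 and 9.25, -1.04 ± 0.19), as did the peroxisomal enzyme gene ehhadh (10.32, 10.28 and 10.29 against 10.87, 10.69 and 10.90, -0.53 ± 0.11) and eci1 (-0.44 ± 0.10). The groups of these 5 genes did not overlap. fabp1b.1, a fatty acid binding protein of liver and intestine, was called lower (5.95, 5.48 and 6.72 against 10.56, 9.25 and 6.53, -2.73 ± 0.77, adjusted p = 0.012), with control replicate 3 within the irradiated range, and its controls ran in the same order as the intestine markers (7.91, 6.30 and 5.67). The call was lost without any one of 4 arrays (adult 1.0 Gy replicates 1 and 2 and control replicates 1 and 2) and in 5 fits without an array of another group. The part of intestinal RNA in it was not tested. In fatty acid and sterol synthesis 5 of 31 were higher (16.1%) and 7 lower (22.6%), with a median of -0.06. Of the sterol pathway, the entry enzymes acat2 (7.59, 6.91 and 7.64 against 9.23, 10.19 and 10.14, -2.47 ± 0.31) and hmgcs1 (5.64, 5.65 and 5.77 against 7.64, 7.84 and 8.51, -2.31 ± 0.20) and the late enzyme nsdhl (6.41, 6.41 and 6.35 against 7.36, 7.22 and 7.88, -1.10 ± 0.18) were lower, as were acss2, which makes acetyl-CoA (-1.22 ± 0.20), and mid1ip1l (-1.79 ± 0.29). lpin2, a phosphatidate phosphatase, was higher (10.21, 10.01 and 10.05 against 9.39, 9.54 and 9.40, 0.65 ± 0.14). The number called higher here ranged from 1 (without adult 1.0 Gy replicate 2) to 6 over the fits that left out 1 array, and the number lower from 7 to 8. With control replicate 1 as the only control, 2 oxidation genes were higher and 4 lower and 2 synthesis genes were higher and 6 lower, cpt1ab was not called and hmgcs1 fell below the filter.

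Carbohydrate genes gave little: 3 of 50 genes of glycolysis and glycogen were higher (6%) and 4 lower (8%), with a median of 0.11. Both shares were under those of all genes, 8.4% and 16.5%. The 2 glycogen-targeting subunits of protein phosphatase 1 on the list with calls moved in opposite directions, ppp1r3ca at 11.44, 11.31 and 11.24 in adult 1.0 Gy livers, against 9.77, 9.48 and 10.19 in controls (1.51 ± 0.28), and ppp1r3b at 7.62, 7.42 and 7.80 against 8.85, 8.74 and 8.61 (-1.12 ± 0.18). pgm1, between glycogen and glucose 6-phosphate, was lower (-0.70 ± 0.16), and gapdh was not called (14.57, 14.49 and 14.55 against 14.52, 14.51 and 14.51). The number called higher was 5 without adult 1.0 Gy replicate 1 or 3 and 1 without control replicate 3. It was also 1 without both control replicates 2 and 3, with 2 genes lower.

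Transcription factors of the liver were called in both directions, 5 higher (11.1%) and 7 lower (15.6%) of 45, with a median of 0.07. These shares were near the 8.4% and 16.5% of all genes, but 42 of the 45 passed the filter on variation, against 5468 of 8793 genes. After cebpa, the largest decrease was in prox1a, a homeobox factor of liver and lymphatic development (6.44, 5.93 and 6.66 in adult 1.0 Gy livers, against 7.94, 8.82 and 8.67 in controls, -2.13 ± 0.25, adjusted p = 3e-05), followed by gata6 (6.06, 6.48 and 6.17 against 7.49, 7.63 and 7.78, -1.40 ± 0.22), foxa3 (-0.97 ± 0.25) and nr5a2, a nuclear receptor of bile acid synthesis (-0.91 ± 0.15). Also lower was the retinoid receptor gene rxrga (-0.63, not called without adult 1.0 Gy replicate 3 or control replicate 2 or 3). Higher were the nuclear receptor genes thraa, as given above, nr1h3, the oxysterol receptor LXRα (9.06, 9.10 and 9.10 against 8.36, 7.89 and 7.65, 1.12 ± 0.18), nr1h5 (10.14, 9.84 and 9.81 against 9.05, 8.24 and 7.92, 1.53 ± 0.25) and hnf4b (7.73, 7.12 and 7.34 against 6.37, 5.67 and 6.08, 1.36 ± 0.23), and cebpb, a relative of cebpa (0.48, not called without adult 1.0 Gy replicate 1 or 2 or control replicate 2). The groups of prox1a, gata6, nr1h3, nr1h5 and hnf4b did not overlap. hnf4a, the master factor of hepatocytes, was not called (8.18, 8.24 and 8.33 against 7.43, 8.63 and 8.53, 0.05 ± 0.23, adjusted p = 0.86), and its control replicate 1 lay below the other 5 arrays. It was called higher (0.82) without control replicates 2 and 3 and lower without control replicate 1 alone (-0.33) or with adult 1.0 Gy replicate 3 (-0.37). In the fit without control replicates 2 and 3, foxa3, rxrga and cebpb were not called, nr5a2 fell below the filter, and 5 factors were higher and 4 lower.

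Of the hypoxia-inducible factors and their targets, 5 of 27 were higher (18.5%) and 3 lower (11.1%), beside 8.4% and 16.5% of all genes. The list median was 0.12. Of the factors themselves, beside hif1al, epas1a measured 10.15, 10.26 and 10.01 in adult 1.0 Gy livers, against 9.32, 9.35 and 9.20 in controls (0.85 ± 0.12) and epas1b was called higher by 0.64 (not without adult 1.0 Gy replicate 3 or control replicate 3), while hif1ab was not called (-0.41 ± 0.24). hif1an, an oxygen-dependent inhibitor of these factors, was higher (7.67, 7.57 and 6.82 against 6.36, 6.56 and 6.46, 0.89 ± 0.21). The target vegfaa, an endothelial growth factor, was called lower (3.99, 4.06 and 4.04 against 4.91, 5.31 and 5.68, -1.27 ± 0.17), with its irradiated arrays near the lower end of the scale. It fell below the filter on variation without any one of the 3 controls, and was not called without embryo 0.1 Gy replicate 1. p4ha2, a collagen prolyl hydroxylase, was lower (-0.98 ± 0.21), and egln3, a target that degrades the factors, ranged from 5.77 to 10.43 over the 3 irradiated arrays and was called lower only without adult 1.0 Gy replicate 2 (-2.41). The counts changed when 1 array was left out: without control replicate 3, 3 were higher and 1 lower, and without adult 1.0 Gy replicate 2, 5 were lower. With control replicate 1 as the only control, 2 were higher and 0 lower, hif1al and epas1a.

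Clock genes were higher in 8 and lower in 2 of 30 cases (median 0.25). The repressors of the negative limb led. cry1b measured 7.71, 7.23 and 7.55 in adult 1.0 Gy livers, against 5.59, 5.24 and 5.07 in controls (2.2 ± 0.22, adjusted p = 9.9e-06), and ciarta, a repressor of the clock activators, 9.36, 9.19 and 9.01 against 7.77, 6.93 and 7.90 (1.65 ± 0.31). nfil3-6, of a family that opposes clock-driven activation, measured 10.91, 10.31 and 10.23 against 8.96, 9.22 and 9.29 (1.33 ± 0.24), and fbxl3a, the ubiquitin ligase that removes cryptochromes in mammals, 7.63, 7.46 and 7.38 against 6.76, 6.30 and 6.21 (1.07 ± 0.16). The irradiated arrays were above all controls in these 4 genes. per2 was not called (7.36, 8.03 and 7.74 against 8.35, 7.68 and 7.69, -0.19 ± 0.28). The members called lower were the repressor gene bhlhe40 (-0.92, not called without adult 1.0 Gy replicate 1 or control replicate 1 or 3) and the nuclear receptor gene rorab (-0.41, not called without control replicate 2). Time of day at dissection is not given in the sources used here. Targets of glucocorticoids and related hormones, a list that shares thraa, tat and pdk4 with others, had 9 of 27 higher and 3 lower (median 0.27). klf9, a transcription factor induced by glucocorticoid and thyroid hormone, measured 10.67, 10.10 and 10.07 against 6.70, 8.24 and 7.63 (2.76 ± 0.45, adjusted p = 0.00036), tsc22d3, which encodes the glucocorticoid-induced leucine zipper, 10.66, 10.77 and 9.93 against 8.29, 9.30 and 9.90 (1.29 ± 0.34, 0.85 without control replicate 1), and hsd20b2, an enzyme of cortisol breakdown in zebrafish, 7.38, 6.80 and 6.71 against 5.65, 6.0 and 5.72 (1.17 ± 0.20). fkbp5, a target that dampens the receptor, was called (11.73, 11.53 and 11.20 against 8.60, 11.23 and 10.39, 1.41 ± 0.55, adjusted p = 0.049), but lost the call in 11 of the 15 fits that left out 1 array, including those without any one of the adult 1.0 Gy arrays or control replicate 1 (0.68) or 3. In klf9, tsc22d3 and fkbp5 control replicate 1 was the lowest array. fkbp4, a chaperone partner of steroid receptors, fell (6.38, 6.78 and 6.39 against 7.82, 7.89 and 7.87, -1.34 ± 0.18). Without control replicates 2 and 3, 5 clock genes were higher and 0 lower, so that bhlhe40 and rorab lost their calls, and 7 of the hormone list were higher and 2 lower. The genes named here as higher were called there too, as was fkbp4.

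Protein synthesis was described by 4 lists. Cytosolic ribosomal proteins hardly varied, with 71 on the array, 2 past the filter on variation, 1 called higher (rps27l, a p53-responsive paralog in human cells, not called without any one of the adult 1.0 Gy arrays or without control replicates 2 and 3) and a median of 0.02. rpl13a measured 14.09, 14.11 and 14.08 in adult 1.0 Gy livers, against 14.07, 14.09 and 14.15 in controls. Factors that build ribosomes in the nucleolus were lower in 28 and higher in 6 of 95 cases (median -0.26). pwp2h, of the small subunit processome, measured 4.49, 4.39 and 4.87 against 5.42, 6.21 and 6.63 (-1.51 ± 0.31). imp3, of the same complex, measured 6.33, 6.28 and 6.34 against 7.34, 7.83 and 7.83 (-1.35 ± 0.18), rrs1 5.67, 5.49 and 5.69 against 6.18, 6.98 and 6.96 (-1.09 ± 0.20), nol6 5.01, 5.51 and 5.20 against 5.65, 6.63 and 6.71 (-1.09 ± 0.23) and nucleophosmin (npm1a) 10.59, 10.71 and 11.07 against 11.26, 11.51 and 11.61 (-0.67 ± 0.14). In imp3, rrs1 and nol6 control replicate 1 lay between the irradiated arrays and the other controls. The helicase gene ddx18 (9.77, 8.76 and 9.18 against 7.23, 7.65 and 7.98, 1.62 ± 0.25) and sdad1 (8.59, 8.46 and 8.59 against 7.63, 6.85 and 7.12, 1.35 ± 0.19) moved the other way. Without control replicate 3, 18 factors were lower, without both control replicates 2 and 3 only 2 were lower and 4 higher, and against control replicate 1 alone the median was -0.03. imp3, ddx18 and sdad1 were called there, npm1a fell below the filter, and pwp2h, rrs1 and nol6 were not called. Aminoacyl-tRNA synthetases, which charge tRNAs, were lower in 10 and higher in 0 of 19 cases (median -0.37), among them tars1 (5.24, 5.63 and 5.60 against 6.27, 7.0 and 7.22, -1.34 ± 0.20), yars1 (-0.86 ± 0.17) and kars1 (9.87, 9.95 and 9.98 against 10.46, 10.37 and 10.47, -0.50 ± 0.10). The count of synthetases was 6 without adult 1.0 Gy replicate 1, 3 without control replicate 2, 3 without control replicate 3 and 2 without both controls, tars1 and kars1. Of translation factors, 6 of 75 were higher (8%) and 18 lower (24%), beside 8.4% and 16.5% of all genes, with a list median of -0.08. Forms of the cap-binding protein moved in opposite directions, eif4e3 at 9.05, 8.84 and 9.0 against 8.18, 7.73 and 7.75 (1.08 ± 0.14) and eif4e1c at 7.45, 7.31 and 7.65 against 8.56, 9.29 and 9.30 (-1.58 ± 0.20), and mknk2b, the kinase that phosphorylates eIF4E, rose by 3.23 ± 0.25 (11.56, 11.83 and 10.75 against 8.42, 7.88 and 8.14), called with each of its 3 probe sets. The number called higher was 3 without adult 1.0 Gy replicate 1 or 2, and without control replicates 2 and 3 the list had 4 higher and 4 lower.

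Genes of the proteasome, chaperones outside the ER and tubulins were counted next. Of 51 proteasome genes, 25 were lower and 0 higher (median -0.42). psmd12 of the regulatory lid measured 7.0, 6.95 and 6.95 in adult 1.0 Gy livers, against 7.85, 8.15 and 7.88 in controls (-1.0 ± 0.13), psmd13 7.22, 7.25 and 7.39 against 8.01, 8.29 and 8.51 (-0.98 ± 0.14), the core subunit gene psma5 7.55, 7.53 and 8.03 against 8.44, 8.53 and 8.60 (-0.82 ± 0.15) and the interferon-inducible psmb9a 5.61, 5.62 and 5.69 against 6.77, 6.02 and 6.62 (-0.83 ± 0.16). In none did the groups overlap, and the largest of these differences was -1.0. psma1 did not pass the filter (9.56, 9.77 and 9.78 against 9.78, 9.60 and 9.68). Of 47 chaperones outside the ER, 3 were higher and 15 lower (median -0.19). hspa4a, a nucleotide exchange factor of Hsp70, measured 5.64, 6.5 and 5.68 against 6.5, 8.72 and 8.55 (-1.98 ± 0.45). hspd1, the mitochondrial chaperonin Hsp60, measured 8.60, 9.05 and 9.04 against 10.34, 10.85 and 10.97 (-1.82 ± 0.20, adjusted p = 1.9e-05), the Hsp90 activator gene ahsa1b 5.24, 5.32 and 5.62 against 6.56, 7.37 and 7.35 (-1.70 ± 0.19), and the Hsp40 genes dnajb6b and dnajb1b were lower by -1.52 ± 0.12 and -1.48 ± 0.27. The abundant constitutive chaperones did not pass the filter, hspa8 at 13.27, 13.34 and 13.33 against 13.38, 13.48 and 13.58 and hsp90ab1 at 13.48, 13.30 and 13.46 against 13.54, 13.52 and 13.50. Tubulins and dynein light chains were lower in 8 and higher in 1 of 20 cases (median -0.12). After dynll1 and tubb2b came the α-tubulin gene tuba5 (8.99, 9.22 and 9.15 against 10.99, 11.42 and 11.48, -2.18 ± 0.13, adjusted p = 3.3e-07) and γ-tubulin (tubg1, 5.20, 5.65 and 5.38 against 6.27, 6.51 and 6.68, -1.08 ± 0.13), and tuba2 was higher (6.11, 5.18 and 5.36 against 4.66, 4.72 and 4.82, 0.82 ± 0.21, 0.54 without adult 1.0 Gy replicate 1). It was the 1 gene called higher, against 3 without control replicate 1 and 2 without adult 1.0 Gy replicate 3. Tubulin genes are near-identical in places, so a probe set can read a paralog. When control replicates 2 and 3 were omitted, the numbers lower were 8, 9 and 4 for the 3 lists, with each gene named as lower called again except hspa4a, and tuba2 not called.

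Genes for making and importing mitochondrial proteins and genes of the respiratory chain were counted separately. Of 85 mitochondrial ribosomal and import genes, 46 were lower and 0 higher (up to 2 in fits that left out 1 array, median -0.53). timm50, a receptor of the inner membrane translocase, measured 6.46, 6.41 and 6.64 in adult 1.0 Gy livers, against 7.76, 8.58 and 8.88 in controls (-1.90 ± 0.24, adjusted p = 4.6e-05), tomm22, of the outer membrane receptor, 7.64, 7.6 and 7.95 against 8.85, 8.95 and 9.55 (-1.38 ± 0.18), and timm13, of the chaperones between the membranes, 7.95, 7.94 and 8.21 against 9.13, 9.55 and 9.90 (-1.49 ± 0.19). Of the ribosomal proteins, mrpl1 measured 4.01, 3.94 and 4.04 against 5.04, 5.72 and 6.47 (-1.75 ± 0.25) and mrps23 5.18, 5.19 and 5.50 against 6.41, 6.87 and 7.28 (-1.57 ± 0.19). The irradiated arrays lay together and below all controls, and in each gene control replicate 1 was the lowest control. Those of mrpl1 that were irradiated lay near the lower end of the scale. In the respiratory chain 10 of 88 genes were lower (11.4%) and 1 higher (1.14%), with a median of -0.07. Both shares were under those of all genes, 16.5% lower and 8.4% higher, and 40 of the 88 passed the filter on variation. The genes called lower included assembly factors, such as ndufaf1 (7.30, 7.19 and 7.25 against 7.86, 7.95 and 8.39, -0.82 ± 0.12), ndufaf8 (-1.04 ± 0.17) and cox11 (-0.92 ± 0.15). The complex II subunit gene sdhb (-0.57 ± 0.11) was lower too. Without control replicate 3, 6 respiratory genes were lower. In the fit without control replicates 2 and 3, the counts were 20 and 4, sdhb was not called, and the median of the mitochondrial ribosome and import list against control replicate 1 alone was -0.36.

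Splicing factors and RNA-binding proteins were lower in 51 and higher in 6 of 114 cases (median -0.40). rbmx measured 5.26, 5.97 and 5.92 in adult 1.0 Gy livers, against 7.85, 8.50 and 8.53 in controls (-2.57 ± 0.25, adjusted p = 7.9e-06), but only 1 of its 2 probe sets was called. hnrnpl, a regulator of alternative splicing, measured 6.83, 7.08 and 6.86 against 8.05, 8.71 and 8.69 (-1.56 ± 0.16), lsm6, which binds U6 RNA, 5.63, 5.23 and 5.63 against 6.84, 7.43 and 7.66 (-1.81 ± 0.22), and the core snRNP protein gene snrpd3 7.68, 8.20 and 7.98 against 9.39, 9.34 and 9.29 (-1.39 ± 0.13). The 2 copies of srsf5, a splicing factor of the SR family, went the other way with narrow groups, srsf5a at 10.96, 10.71 and 10.71 against 9.35, 9.04 and 9.30 (1.56 ± 0.13, adjusted p = 3.5e-06) and srsf5b at 8.08, 8.18 and 8.13 against 7.35, 7.37 and 7.50 (0.72 ± 0.13). The number called higher was 3 without adult 1.0 Gy replicate 2 or control replicate 2 and 2 without control replicate 3. Without both controls it was 2, with srsf5a and srsf5b, and 19 were lower.

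Detoxification and antioxidant genes were called in both directions. Of 48 enzymes and transporters of xenobiotics and bile acids, 5 were higher and 16 lower (median -0.26). Lower beside cyp2r1 were the efflux pump gene abcc4 (7.06, 6.38 and 6.86 in adult 1.0 Gy livers, against 8.07, 7.94 and 7.81 in controls, -1.17 ± 0.23), cyp27a1.4 (7.17, 7.08 and 7.09 against 8.24, 8.20 and 8.05, -1.05 ± 0.14) and cyp8b1.1 (10.58, 9.98 and 10.29 against 11.05, 11.26 and 11.32, -0.92 ± 0.14), of families that make bile acids in mammals, and cyp2ad2 (-0.92 ± 0.17). Highest on the other side was sult2st1 (8.65, 7.58 and 8.58 against 5.18, 5.54 and 4.86, 3.07 ± 0.38, adjusted p = 4.2e-05), a sulfotransferase. The number called higher was 3 without adult 1.0 Gy replicate 1, control replicate 2 or control replicate 3. Of 34 antioxidant genes, 2 were higher (5.88%) and 8 lower (23.5%), beside 8.4% and 16.5% of all genes, with a list median of -0.12. pgd, which makes NADPH, measured 7.27, 7.06 and 7.26 against 8.47, 8.82 and 8.89 (-1.53 ± 0.14), the glutaredoxin gene glrx3 7.32, 7.42 and 7.50 against 8.36, 8.16 and 8.29 (-0.86 ± 0.12) and nqo1, a quinone reductase, 8.65, 9.16 and 9.24 against 9.74, 9.64 and 10.12 (-0.82 ± 0.18). fthl27, of the iron-storing ferritin heavy chain family, rose (12.50, 12.21 and 12.55 against 10.84, 10.26 and 10.21, 1.99 ± 0.20, adjusted p = 1.3e-05), as did keap1a, an inhibitor of the antioxidant factor Nrf2 (0.87 ± 0.21), while catalase (cat) did not vary enough to be tested (12.27, 12.17 and 12.20 against 12.30, 12.22 and 12.18) and nfe2l2a, which encodes Nrf2, was not called (-0.34 ± 0.14). Without control replicates 2 and 3, 9 and 2 genes of the 2 lists were lower, nqo1 was not called and pgd fell below the filter.

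Inflammatory and immediate early genes showed wide spread between arrays. Of 36 genes of NF-κB and cytokine signaling, 4 were higher and 1 lower (median 0.19). The 3 PIM kinases, cytokine-induced survival kinases, were among them: pim1 measured 7.01, 7.22 and 7.11 in adult 1.0 Gy livers, against 5.67, 5.57 and 6.13 in controls (1.33 ± 0.17, adjusted p = 5.4e-05), pim2 6.37, 6.55 and 6.20 against 5.46, 5.59 and 5.26 (0.94 ± 0.17) and pim3 4.08, 4.11 and 3.94 against 3.53, 3.18 and 3.53 (0.63 ± 0.15). pim3 lay near the lower end of the scale in both groups. stat3, an inducer of these kinases, was higher too (0.72, not called without adult 1.0 Gy replicate 1 or 2 or control replicate 3). irf9, of interferon signaling, was lower (-0.74, not called without adult 1.0 Gy replicate 3 or control replicate 1). The NF-κB inhibitor genes nfkbiab (10.56, 10.82 and 9.70 against 8.84, 9.61 and 10.60, 0.68 ± 0.39) and nfkbiaa (0.39 ± 0.26) and the feedback inhibitor gene socs3a (7.80, 7.52 and 7.13 against 5.25, 6.47 and 8.12, 0.87 ± 0.50) were not called, and in nfkbiab and socs3a control replicate 3 lay among or above the irradiated arrays. Of 50 immediate early genes, which respond first to any stimulus, 10 were higher and 4 lower (median 0.17). maff, a small bZIP factor, measured 6.30, 5.69 and 5.59 against 4.89, 4.48 and 4.35 (1.29 ± 0.26) and klf11b 6.84, 5.82 and 6.41 against 4.96, 5.11 and 5.37 (1.21 ± 0.31), while dusp7, a phosphatase of ERK kinases, fell (7.22, 7.10 and 7.03 against 8.41, 8.07 and 8.15, -1.09 ± 0.12), and so did klf2a (-1.06 ± 0.32) and klf2b (-0.94 ± 0.18). The classical members fosab (9.18, 7.66 and 5.83 against 6.97, 5.37 and 8.75) and egr1 (7.75, 7.79 and 4.61 against 6.33, 5.32 and 8.21) overlapped between the groups and were not called, with standard errors of 1.21 and 0.95. Once control replicates 2 and 3 were left out, 4 and 7 genes of the 2 lists were higher, pim3, maff, klf11b and klf2a were not called, and socs3a and nfkbiab were called higher, as they were without control replicate 3 alone.

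Amino acid and one-carbon metabolism had 6 of 58 genes higher and 18 lower (median -0.21). Next to glula, the S-adenosylmethionine synthetase gene mat2aa rose (9.64, 9.31 and 9.54 in adult 1.0 Gy livers, against 7.76, 7.6 and 7.87 in controls, 1.75 ± 0.20, adjusted p = 2.4e-05), and so did tat, a liver enzyme of tyrosine breakdown and a glucocorticoid target in mammals (12.35, 12.18 and 11.65 against 11.03, 11.29 and 11.07, 0.93 ± 0.17). The folate enzymes mthfd1b (8.24, 8.18 and 8.0 against 9.29, 9.26 and 9.23, -1.12 ± 0.14) and mthfd2 (-1.13 ± 0.19), the methionine synthase gene mtr (5.86, 5.74 and 5.80 against 6.47, 7.0 and 7.05, -1.04 ± 0.16) and hibadhb, of valine breakdown (-1.11 ± 0.18, called with each of its 3 probe sets), were lower. Haem synthesis and breakdown had 1 of 16 higher and 6 lower (median -0.13). Along the pathway, alad measured 5.49, 5.86 and 5.48 against 6.51, 6.48 and 6.89 (-1.01 ± 0.14), uros, the one enzyme higher, 6.92, 6.66 and 6.68 against 6.25, 5.80 and 5.91 (0.76 ± 0.12), and cpox 7.14, 7.46 and 6.86 against 8.72, 9.21 and 9.30 (-1.92 ± 0.20, adjusted p = 1.3e-05). The mitochondrial carriers slc25a38b, which supplies glycine, and slc25a39 were lower by -1.10 ± 0.13 and -1.53 ± 0.37. Over these haem genes the erythrocyte marker hbaa1 measured 12.57, 13.09 and 12.64 against 11.83, 12.67 and 12.20 and was not called. Once control replicates 2 and 3 were left out, the counts were 3 higher and 5 lower for amino acid genes, with mthfd2 lost, and 1 and 4 for haem genes.

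Plasma proteins, the main export of the liver, gave few calls. Of 63 complement, coagulation and plasma protein genes, 3 were higher and 1 lower (median 0.01). The number higher was 5 without control replicate 1. c7b and agt, the precursor of angiotensin (12.84, 12.94 and 12.40 in adult 1.0 Gy livers, against 11.65, 11.27 and 11.43 in controls, 1.27 ± 0.19, adjusted p = 0.00019), rose by the most, followed by the coagulation factor gene f13a1b (0.44, not called without adult 1.0 Gy replicate 2 or control replicate 3), and shbg, a carrier of sex steroids, was lower (-0.50, not called without adult 1.0 Gy replicate 2 or 3 or control replicate 3). fgb, a fibrinogen chain, did not pass the filter (14.48, 14.34 and 14.31 against 14.29, 14.29 and 14.31). Both c7b and agt were called without control replicates 2 and 3.

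Several members with large differences were not called in some of the fits that left out 1 array, which also leave fewer arrays to call from. chac1, a glutathione-degrading enzyme of the unfolded protein response, measured 11.98, 10.93 and 11.77 in adult 1.0 Gy livers, against 8.83, 10.36 and 10.92 in controls (1.52 ± 0.45), and was not called without adult 1.0 Gy replicate 1. junbb, an AP-1 component, measured 11.57, 11.67 and 10.60 against 9.23, 8.78 and 11.08 (1.59 ± 0.56) and was not called without any one of adult 1.0 Gy replicates 1 and 2 and control replicates 1 and 2. g6pc1a.2, the last enzyme of glucose release, measured 9.29, 9.24 and 8.72 against 6.32, 8.71 and 8.42 (1.27 ± 0.43) and was not called without adult 1.0 Gy replicate 1 or 2 or any adult 0.1 Gy array. kif20a, a motor of cell division, measured 12.12, 11.36 and 11.55 against 11.27, 9.76 and 10.15 (1.28 ± 0.31) and was not called without adult 1.0 Gy replicate 1 or control replicate 2 or 3. nolc1, a nucleolar protein (5.33, 5.66 and 5.69 against 5.93, 7.27 and 7.28, -1.27 ± 0.28), and sec61a1b, the translocation channel (7.13, 7.08 and 7.12 against 7.40, 8.83 and 8.83, -1.24 ± 0.29), were not called without control replicate 2 or 3. alas1, the first enzyme of haem synthesis in liver, measured 9.24, 10.74 and 9.41 against 10.80, 10.52 and 11.14 (-1.03 ± 0.36) and was not called without adult 1.0 Gy replicate 1 or 3 or control replicate 1 or 3. pdk4, a fasting-induced kinase of pyruvate dehydrogenase (7.83, 7.31 and 6.94 against 6.37, 6.56 and 5.89, 1.09 ± 0.25), was not called without adult 1.0 Gy replicate 1 or 2 or control replicate 3. Of the called genes named by the rule, 240 of 317 kept the call in all 15 of these fits.

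The next question was whether 1.0 Gy differed from 0.1 Gy given to adults at the same time before dissection. Between the adult 1.0 and 0.1 Gy arrays 7 of 8634 probe sets (0.0811%) in 6 genes counted by their brightest probe set (0.0682% of genes) were called, 0 higher and 7 lower at 1.0 Gy, and 1077 had an unadjusted p under 0.05. The median difference between the doses over all genes was 0.01. In the order control, 0.1 Gy and 1.0 Gy, dio2 measured 11.02, 11.50 and 11.82, then 9.17, 9.53 and 10.21, then 7.88, 6.96 and 8.12. The difference between the 2 doses was -1.98 ± 0.32 (adjusted p = 0.043), and the value fell with each step of dose. pbldp, named for a phenazine biosynthesis-like domain, followed the same course at 10.64, 10.61 and 10.61, then 10.02, 9.60 and 9.74, then 8.46, 8.36 and 9.08 (-1.15 ± 0.19 between doses, adjusted p = 0.044). igf1 was 9.58, 9.95 and 9.94 in controls, 9.44, 9.60 and 9.54 at 0.1 Gy and 8.60, 8.75 and 8.54 at 1.0 Gy (-0.90 ± 0.14, adjusted p = 0.028). kyat3.2, a kynurenine aminotransferase, was 7.04, 7.79 and 7.78 in controls, 7.62, 7.54 and 7.48 at 0.1 Gy and 6.35, 6.46 and 6.44 at 1.0 Gy (-1.13 ± 0.17, adjusted p = 0.027), and hsd17b10, a mitochondrial dehydrogenase of fatty acid and isoleucine breakdown, was 6.66, 6.98 and 6.91, 7.10, 6.94 and 7.32 and 6.15, 6.38 and 6.18 (-0.88 ± 0.12, adjusted p = 0.027). igf1, kyat3.2 and hsd17b10 were called lower than in controls at 1.0 Gy but not at 0.1 Gy, and hsd17b10 lost that call without control replicates 2 and 3. pim1 went the other way, highest at the lower dose: 5.67, 5.57 and 6.13 in controls, 8.33, 8.0 and 8.41 at 0.1 Gy and 7.01, 7.22 and 7.11 at 1.0 Gy (-1.13 ± 0.17, adjusted p = 0.027). The seventh probe set was for pcgf5b, a polycomb gene, with a difference of -0.89 in the dimmer of its 2 probe sets and of -0.85 in the brighter one (adjusted p = 0.11), which was not called. In none of the 6 genes did the 2 doses overlap, but they were chosen by this comparison, so their separation is in part a property of the choice. The number of calls was sensitive to single arrays: it was 0 without adult 0.1 Gy replicate 1 or 3 or embryo 0.1 Gy replicate 2 or 3, 1 without adult 1.0 Gy replicate 1 or 3, 2 without adult 1.0 Gy replicate 2, 31 without adult 0.1 Gy replicate 2 and 53 without control replicate 1. It was 29 without the 4 arrays whose source name differs from their title.

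**Figure D5:**
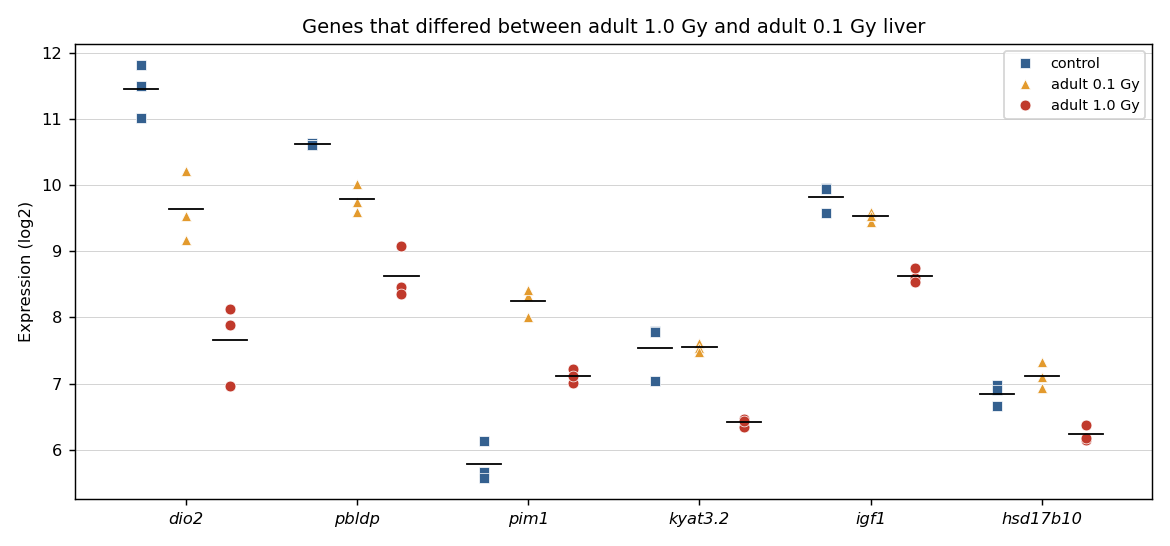
Log2 expression on each array of the 6 genes called between the adult doses, in the order control (squares), adult 0.1 Gy (triangles) and adult 1.0 Gy (circles), with the group mean as a black line. dio2 and pbldp step down with dose, igf1, kyat3.2 and hsd17b10 are lower at 1.0 Gy than in both other groups, and pim1 is highest at 0.1 Gy.

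Adult 0.1 Gy livers differed from controls in 2967 probe sets (34.4%), 1053 higher (12.2%) and 1914 lower (22.2%), and both comparisons with control share the 3 control arrays. Set beside each other, the differences from control at 1.0 and 0.1 Gy were -4.76 and -4.97 for hspa5, -2.90 and -2.96 for tubb2b, 4.18 and 4.63 for hif1al, 3.97 and 3.88 for igfbp1b, and 2.34 and 2.42 for bbc3. cebpa (-4.53 and -2.91) and cyp2r1 (-3.36 and -0.75) were further apart, but their direct differences of -1.63 ± 0.42 and -2.61 ± 0.73 were not called (adjusted p = 0.14 and 0.17). Over the lists, the median direct difference between the doses was farthest from 0.01, the value over all genes, for glucocorticoid and stress hormone targets (-0.44), immediate early genes (-0.30), aminoacyl-tRNA synthetases (-0.29) and ribosome biogenesis (-0.23), and it was 0.06 for p53 targets and -0.05 for ER chaperones. Of these 6 lists, 1 gene was called between the doses in the hormone list (dio2) and 1 in the immediate early list (pim1).

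The adult 1.0 Gy livers were last set against livers of fish that had the same dose as embryos, a comparison in which age at exposure and time after it differ together. Of the probe sets tested, 1969 (22.8%) were called, 774 (8.96%) higher and 1195 (13.8%) lower in adult 1.0 Gy livers. Embryo 1.0 Gy livers differed from controls in 1483 probe sets (17.2%), 484 higher (5.61%) and 999 lower (11.6%). The largest increases were in igfbp1b (11.19, 11.39 and 10.74 in adult 1.0 Gy livers, against 6.71, 6.51 and 6.68 in embryo 1.0 Gy livers, 4.47 ± 0.45, adjusted p = 4.5e-05), c7b (10.43, 10.57 and 9.64 against 6.59, 7.07 and 6.18, 3.60 ± 0.54) and slc26a5 (9.84, 10.11 and 8.87 against 6.17, 6.42 and 7.48, 2.92 ± 0.42). None of these 3 genes was called between embryo 1.0 Gy and control livers. ppp1r3ca (11.44, 11.31 and 11.24 against 9.0, 8.77 and 7.93, 2.76 ± 0.28) was called in both comparisons with control, higher at the adult and lower at the embryo exposure. sult2st1 (2.73 ± 0.38) and pisd, a phosphatidylserine decarboxylase (9.45, 9.28 and 9.12 against 6.79, 6.48 and 6.59, 2.67 ± 0.26), completed the 6 largest increases. The largest decreases were in fabp2, cyp2r1, cebpa, igf2b, dio2 and hspa5. cebpa measured 6.49, 6.61 and 7.11 against 10.22, 9.67 and 10.23 (-3.30 ± 0.42, adjusted p = 0.00018), igf2b 8.43, 7.78 and 7.89 against 10.94, 11.18 and 11.29 (-3.11 ± 0.32, adjusted p = 4.7e-05) and hspa5 5.84, 7.49 and 6.10 against 8.84, 8.93 and 9.73 (-2.69 ± 0.35), with hspa5 also lower in embryo 1.0 Gy livers than in controls (-2.07). fabp2 measured 6.60, 6.66 and 6.43 against 10.77, 11.29 and 10.72 (-4.36 ± 1.08, adjusted p = 0.011) and is an intestine marker, whose part as RNA of that tissue was not tested. By list, members called higher and lower in adult 1.0 Gy than in embryo 1.0 Gy livers numbered 9 and 1 for p53 targets and 11 and 2 for cell death regulators. They numbered 13 and 5 for autophagy and the lysosome, 0 and 10 for ER chaperones, 1 and 29 for the mitochondrial ribosome and import, and 1 and 28 for ribosome biogenesis. Of all genes, 5.77% were higher and 10% lower. The direct counts were 2 and 1 of 19 for aminoacyl-tRNA synthetases, 0 and 6 of 40 for vesicle traffic and 4 and 3 of 30 for clock genes. Medians against control in adult and embryo 1.0 Gy livers had the same sign in these lists. They were -0.37 and -0.56 for aminoacyl-tRNA synthetases, -0.56 and -0.43 for vesicle traffic and 0.25 and 0.24 for clock genes. acat2 (-1.98), cry1b (1.70), cpox (-1.63) and caska (-1.54) were also called between embryo 1.0 Gy and control livers, in the direction seen in adult 1.0 Gy livers. Both comparisons share the 3 control arrays.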

How the data were processed

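Liver RNA was hybridized to the GeneChip Zebrafish Genome Array, 3 arrays in each of 5 groups. After quality checks in affyPLM, the authors deposited log2 values from robust multi-array average with quantile normalization, which were used unchanged. The number of arrays limits the precision.

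Of 15502 zebrafish probe sets (115 manufacturer's controls were left out), 10795 carried 1 gene symbol, 135 several and 4572 none in the platform annotation, which left 8793 genes. Those whose interquartile range across all 15 arrays was no smaller than 0.2 were fitted with 5 group means in limma 3.58.1 (R 4.3.3), after the procedure was tested on simulated data. A probe set was called at Benjamini-Hochberg adjusted p-values under 0.05 for both the F-test and the comparison. Groups were taken from sample titles, with dose and timing.

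Named genes were the 15 largest separated changes each way, the 6 largest called members each way and key members of 36 lists, of which those with the most stable calls are given in full, the study's tabulated genes, those called between irradiated groups and defining markers. The members and lists were chosen with earlier results of these data known. The autophagy and lysosome list and apoea, apoa1a and epoa were added after differences were seen. Alternatives covered the filter, F-test gate, scaling, array weights, variance prior, probe set, arrays in the fit, a difference of at least 1, a replicate block, and leaving out arrays singly or together.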

Additional observations from a re-analysis of the deposited data

Results flagged for a closer look

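Differences between the adult 1.0 Gy livers and another irradiated group were tested directly, and those past the threshold are repeated here as values. Against adult 0.1 Gy livers the 7 probe sets called were those of dio2 (-1.98), pbldp (-1.15), pim1 (-1.13), kyat3.2 (-1.13), igf1 (-0.90), pcgf5b (-0.89) and hsd17b10 (-0.88). Apart from pcgf5b, each was lower at 1.0 Gy on all 3 arrays than on any 0.1 Gy array. They were chosen by this comparison, so their separation is in part a property of the choice.

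Against embryo 1.0 Gy livers, the largest decreases called were in fabp2 (-4.36), cyp2r1 (-3.90), cebpa (-3.30), igf2b (-3.11), dio2 (-2.79) and hspa5 (-2.69). The largest increases were in igfbp1b (4.47), c7b (3.60), slc26a5 (2.92), ppp1r3ca (2.76), sult2st1 (2.73) and pisd (2.67). Groups of 3 arrays are too small for a test of single outlying arrays.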

How the results depend on the processing

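Of 317 named genes called between adult 1.0 Gy and control livers, 240 kept the call in all 15 fits that left out 1 array. Over 29 alternatives, 0 changed direction where they passed the filter. The genes were chosen as called and the fits share most arrays, so a change of direction was unlikely in advance. The number of calls was 1305 at an interquartile range of at least 0.5 (495 higher, 810 lower), 1189 without control replicates 2 and 3 (411 and 778), 1106 without the 4 arrays whose source name differs (396 and 710), and 785 for differences of at least 1 (308 and 477). Array weights gave 2142 higher. Leaving out 1 array gave 2225 to 3261 calls, 743 to 1253 higher and 1482 to 2068 lower, the fewest without control replicate 3. With array medians subtracted all differences shifted by -0.07 and 898 were higher and 2275 lower, and with quantile normalization repeated the shift was 0.04 with 1282 and 1857.

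Between the adult doses the 7 calls became 4 without the filter, 0 at the stricter filter, 47 with array weights, 12 with a trended and robust prior, 29 without the 4 arrays whose source name differs, 23 without adult 1.0 Gy replicate 3 and control replicate 1, 4 for differences of at least 1 and 0 to 53 without 1 array. Against embryo 1.0 Gy livers the 1969 calls became 1200 at the stricter filter, 393 for differences of at least 1 and 1294 to 2209 without 1 array, the fewest without embryo 1.0 Gy replicate 2. The cause of these changes was not tested.

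With the replicate number as a block 2847 probe sets were called against control, 7 against adult 0.1 Gy and 1718 against embryo 1.0 Gy livers, and 299 of the 317 named genes kept the call. The numbers did not pair the samples, since the deviations of same-numbered arrays correlated at -0.15, 0.14 and -0.17.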

Other observations

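Nucleotide synthesis genes, not described above, had 4 of 47 members higher (8.51%) and 10 lower (21.3%) in adult 1.0 Gy livers than in controls (median -0.00). Of all genes, 8.4% were higher and 16.5% lower. The salvage enzyme genes upp2 (11.93, 11.07 and 11.69 in adult 1.0 Gy livers, against 9.91, 9.92 and 9.45 in controls, 1.8 ± 0.26) and uprt (0.70 ± 0.13) were higher, and so was impdh1b, of guanine nucleotide synthesis (7.72, 7.54 and 7.58 against 6.65, 6.40 and 6.25, 1.18 ± 0.18), while its paralog impdh2 was lower (-0.68 ± 0.14). uck2b, another salvage kinase (5.74, 5.80 and 5.65 against 6.51, 7.22 and 6.99, -1.18 ± 0.22), cmpk (-1.15 ± 0.16) and ppat, the first enzyme of purine synthesis (5.89, 6.10 and 5.87 against 6.51, 7.14 and 7.51, -1.10 ± 0.19), were lower. The groups of upp2, impdh1b, uck2b and ppat did not overlap. Without adult 1.0 Gy replicate 1 or control replicate 3 the number lower was 6, and without control replicates 2 and 3 it was 3, with impdh2 and uck2b not called. Egg yolk and oestrogen response genes gave 3 higher (5 without embryo 1.0 Gy replicate 3) and 1 lower of 17 (median 0.23), of which the oestrogen receptor gene esr2a changed most (6.60, 6.49 and 6.51 against 7.58, 7.45 and 7.36, -0.93 ± 0.15).

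Chosen after their values were seen, 3 genes differed widely on average without being called, and the call of each changed with the arrays in the fit. apoea, an apolipoprotein gene, measured 4.97, 5.36 and 6.5 in adult 1.0 Gy livers, against 12.70, 9.97 and 5.65 in controls (-3.82 ± 1.42), and its controls ran in the order of the intestine markers (7.91, 6.30 and 5.67), whose part in it was not tested. It was called lower without control replicate 3 (-5.72) or control replicates 2 and 3 (-7.09). apoa1a, the main apolipoprotein of high-density lipoprotein, measured 14.31, 10.32 and 12.51 against 14.51, 14.05 and 14.33 (-1.91 ± 0.68), with adult 1.0 Gy replicate 2 below the other arrays, and was called lower without adult 1.0 Gy replicate 1 (-2.88). epoa, erythropoietin, measured 4.57, 4.97 and 3.99 against 6.10, 6.36 and 6.73 (-1.89 ± 0.57), and its groups did not overlap. It was called lower with the replicate block, with array weights, in a fit of the 6 arrays compared alone and without adult 0.1 Gy replicate 3 or embryo 0.1 Gy replicate 1.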
